A study of Bos taurus with 8 samples.

Results

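Control bovine blastocysts, which formed from oocytes matured without added insulin, were examined here for the level of each transcript rather than for their response to insulin. Their RNA was read in 1 of the 2 channels of each of 8 2-colour arrays, which gave 8 of the 16 channel readings of the series. The other channel carried RNA of blastocysts from oocytes matured with bovine insulin at 10 µg/ml (INS10, 4 arrays) or 0.1 µg/ml (INS0.1, 4 arrays). All embryos, controls included, came from slaughterhouse ovaries and were matured, fertilised and cultured in vitro, and insulin was present in the maturation medium only. The control reading was in Cy5 on replicates 3 and 4 and in Cy3 on replicates 1 and 2 of each dose. The 4 arrays of a dose shared a slide, so each slide carried 2 Cy5 and 2 Cy3 readings of control RNA.

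The study states 4 biological replicates per condition. The labels do not say whether the control RNA of a number was the same on both slides, so the 8 control readings may come from as few as 4 control samples, and n is given below as a number of readings, never of embryos or cultures. The sources used here give no breed, sex or age for the blastocysts.

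A blastocyst is a hollow embryo that consists of an outer epithelium, the trophectoderm, and an inner cell mass that separates into epiblast and hypoblast. The trophectoderm seals its junctions and pumps ions and water inwards to fill the cavity, and in ruminants it secretes interferon tau, the signal that maintains pregnancy. By this stage the embryo lives on RNA of its own, since most RNA stored in the oocyte is broken down in earlier cleavage stages.

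Each of 43794 bovine probes was given a background-subtracted median intensity in each control reading and a percentile rank within that reading, from 0 for the dimmest to 100 for the brightest probe. Ranks were averaged over the 8 readings, and a gene was represented by its probe with the highest mean rank, which covered 15216 genes, of which 14304 carried a proper gene name. Brightness also depends on the probe's sequence, on amplification and on labelling, so the ranks order probes by signal and do not count molecules. A probe was called detected in a reading where it exceeded the mean plus 2 SD of 153 negative control spots in the same channel. That limit lay at intensities of 122 to 214 in Cy5 and 207 to 265 in Cy3, and 0% to 5.88% of the negative spots themselves lay above it. Median probe intensity was 138 to 211 in Cy5 and 228 to 271 in Cy3. The brightest 1% of probes held 39.4% to 40.1% of the signal above the negative spots in Cy5 and 32.1% to 36.0% in Cy3. In Cy5, 3 to 7 probes per reading reached the scanner's ceiling before background subtraction, and in Cy3 none did. Spearman's correlation between control readings over probes was 0.766 to 0.916, and 69 to 86 of the 100 brightest probes were shared by any pair. Probes are not independent replicates, and a pair may share a slide, a dye or the RNA.

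Control RNA gave a signal above the limit in every reading taken for 14686 probes (33.5%) and in no reading for 8867 (20.2%), while 20241 (46.2%) lay in between. A probe with an ignored spot was judged on its other readings. Probes with a gene symbol were above the limit in every reading more often than unnamed probes, at 41.7% against 25.4%. Among named genes, 6897 (48.2%) were above the limit in every reading and 1858 (13.0%) in none. By dye, 70 probes were above the limit in all Cy5 and no Cy3 readings and 95 showed the reverse. By slide, 324 probes passed in every reading of the INS10 slide and in none of the INS0.1 slide, against 207 the other way. Probes of a gene often disagreed. Of 4034 genes with more than 1 probe, 607 (15.0%) had a probe in every reading and another in none. A gene listed in no reading is one whose probe with the highest mean rank never passed the limit, and its other probes were not considered.

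**Figure D1:**
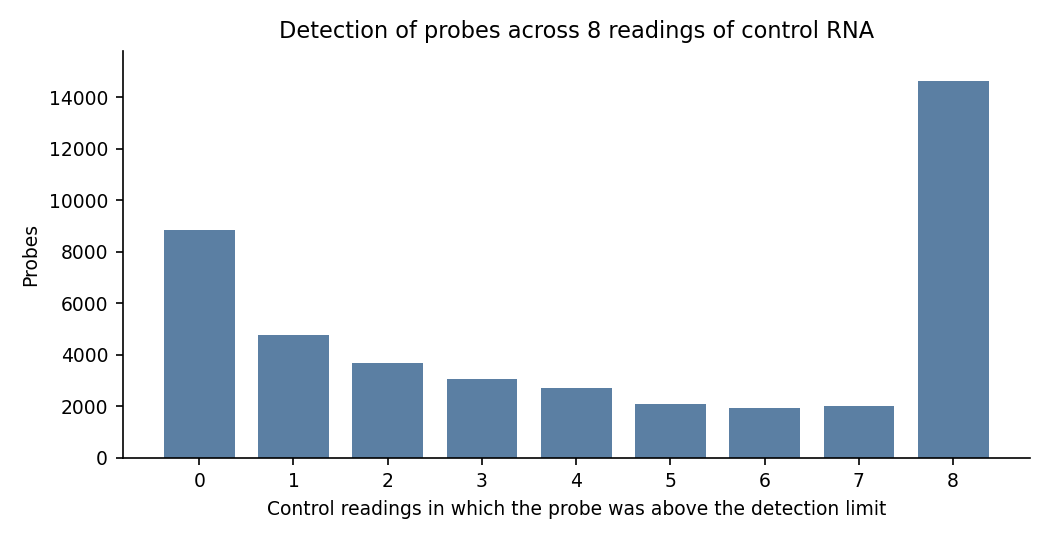
Bars give the number of probes (vertical axis) above the detection limit in 0 to 8 readings of control RNA (horizontal axis). The tallest bars are those of probes above the limit in 8 readings and in none, and the counts between fall to 1947 probes in 6 readings.

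The embryos carried the markers of both blastocyst lineages, and of the 7 markers checked, the keratins KRT8 and KRT18 lay far above the 5 transcription factors. KRT8, a keratin of simple epithelia and of the trophectoderm, had intensities of 65113 and 64999 in Cy5 on the INS10 slide, 65183 and 65150 in Cy5 on the INS0.1 slide, 33122 and 46527 in Cy3 on the INS10 slide, and 50008 and 46599 in Cy3 on the INS0.1 slide. All 4 Cy5 readings of KRT8 were close to the scanner's ceiling and above all 4 Cy3 readings. KRT18, its filament partner, had 54957, 53074, 39977 and 48829 in Cy5 and 28551, 49418, 35029 and 51088 in Cy3, in the same order of slides. Here the dyes overlapped. Mean percentile ranks were 99.9 ± 0.147 for KRT8 and 99.7 ± 0.182 for KRT18 (SD, 8 readings).

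NANOG, a transcription factor of the epiblast, had intensities of 8906, 10046, 6345 and 5227 in Cy5 and 7994, 9831, 4852 and 8992 in Cy3, with the INS10 slide before the INS0.1 slide in each dye. POU5F1, which keeps cells of the inner cell mass pluripotent and in cattle is still made in the trophectoderm of the blastocyst, had 5279, 6423, 4121 and 4069 in Cy5 and 6847, 8137, 5295 and 7090 in Cy3. Every reading of both genes lay far above the detection limits, at mean ranks of 96.9 ± 0.736 and 96.0 ± 0.774. Their ranges overlapped, so the order of NANOG and POU5F1 is not settled by these readings, nor is that of KRT8 and KRT18.

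The other 3 of the 7 markers, GATA3, SOX2 and CDX2, were dim. GATA3, a factor of the trophectoderm, had intensities of 423, 556, 398 and 375 in Cy5 and 669, 460, 543 and 514 in Cy3 (mean rank 76.5). All 8 readings were above the limit. SOX2, a factor of the epiblast and POU5F1's partner, had 171, 177, 213 and 237 in Cy5 and 303, 231, 323 and 315 in Cy3, and passed the limit in 8 of 8 readings by a small margin (mean rank 59.6). CDX2, the trophectoderm factor that represses POU5F1 in the mouse, had 171, 220, 189 and 190 in Cy5 and 267, 212, 263 and 326 in Cy3 (mean rank 54.5). CDX2 was above the limit in 6 of 8 readings, and its range overlapped that of SOX2. At this level the Cy3 values of SOX2 lay mostly above its Cy5 values, and the Cy3 detection limits were also mostly the higher ones.

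**Figure D2:**
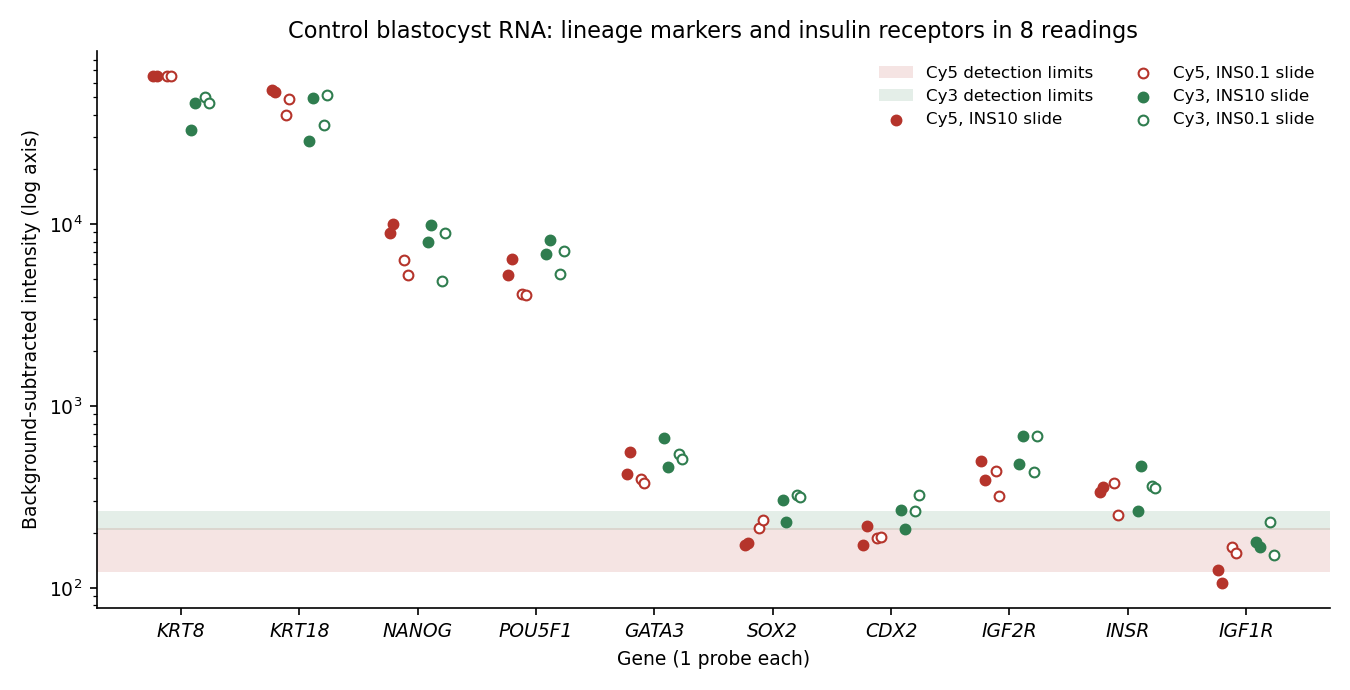
Points give background-subtracted intensity (log axis) of 7 lineage markers and 3 receptor genes in each of 8 control readings, Cy5 left of Cy3, with filled points for the INS10 slide and open points for the INS0.1 slide. Bands span the detection limits of each dye. Keratins reach 65183, NANOG and POU5F1 lie between 4069 and 10046, and SOX2, CDX2 and IGF1R lie at or near the bands.

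Of 21 trophectoderm genes measured, 17 were above the limit in every reading and none was below it in all, with a median rank of 84.3 against 60.1 for all named genes. KRT19, another simple-epithelium keratin, ran from 40055 through a median of 50913 to 57290. TFAP2C, an AP-2 factor of trophoblast, ran from 23170 through 26008 to 35708 and was the brightest transcription factor on the lineage lists (mean rank 99.2). HAND1 (118, 183.5 and 240 for lowest, median and highest) and EOMES (90, 167.5 and 283), both factors of mouse trophoblast, were the dimmest members and passed the limit in 1 and 3 readings. The list therefore spanned mean ranks from 99.9, for a keratin, down to 34.3, with 2 factors at or near background.

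Of 20 inner cell mass genes, 14 were above the limit in every reading and 1 in none (median rank 67.9). KLF4, a factor that sustains pluripotency, ran from 5564 through 6680.5 to 7416, within the range of POU5F1. DNMT3B, a de novo DNA methyltransferase, ran from 1011 through 1690.5 to 2885. FGF4 (102, 152 and 175), the growth factor by which mouse epiblast instructs hypoblast, and KLF17 (96, 147.5 and 217) each passed the limit in 1 reading. TFCP2L1 was the member above the limit in no reading. NANOG, KLF4 and POU5F1 thus stood apart from the other 17 members, of which DNMT3B ranked highest at 89.3.

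Of 18 hypoblast genes, 11 were above the limit in every reading and 3 in none, with a median rank of 84.4 beside 84.3 for the trophectoderm list. FN1, the matrix protein fibronectin, ran from 42793 through 58106.5 to 65144 and was among the 5 brightest named genes of the array. HNF4A, a factor of primitive and visceral endoderm, ran from 8001 through 11252 to 14219. SPARC, a basement membrane glycoprotein, had a median of 5148.5 and PDGFRA, a receptor of early hypoblast cells, 4235.5. AFP, an albumin-like protein of later yolk sac, was in no reading and COL4A2, a basement membrane collagen, in 1. Of the endoderm transcription factors SOX17 passed in 2 readings, FOXA2 in 1 and SOX7 in none, while GATA4 (589, 1056 and 1385) passed in all 8. FN1, SPARC and PDGFRA are also made by many other cell types.

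Among products that ruminant trophoblast secretes, interferon tau was the brightest. IFNT had intensities of 22638, 22219, 16119 and 16628 in Cy5 and 20757, 26301, 19249 and 31739 in Cy3 (INS10 slide before INS0.1 slide in each), a mean rank of 98.96. The dyes overlapped, and the brightest reading of IFNT was 31739, against 16119 for the dimmest. Bovine interferon tau genes are a family of near-identical copies, so the probe may read several. PTGS2, which makes prostaglandin precursors, ran from 5244 through 10784 to 13985. The pregnancy-associated glycoprotein gene PAG2 ran from 2163 through 3373.5 to 5576, and the Kunitz-domain protein gene TKDP1 from 1644 through 1838 to 2324. Of 20 genes on this list, 8 were in every reading and 5 in none (median rank 41.7). The prolactin-related genes PRP1 (73, 121.5 and 200) and PRP2 (74, 131 and 205), products of later binucleate cells, were in no reading, and neither were PAG1, PAG4 and PAG10. PAG genes share sequence, and a signal may be split or shared between them.

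Ribosomal protein genes were the most frequent kind among the brightest named genes. RPS29, a protein of the small ribosomal subunit, came first and ran from 49710 through 61353 to 65262. ACTG1, cytoplasmic gamma actin, came next at 52509, 60112.5 and 65148. RPS13, RPS4Y1, FN1, RPL12, the RNA-binding protein gene SERBP1, TPT1, HSP90AA1 and RPS16 completed the first 10, and RPS21, KRT8, the tropomyosin gene TPM4, PDIA6, RPS3, ATP1B3, the glutaredoxin gene GLRX, RPL23A, RPL27 and RPS2 the first 20. Within these 20 genes the ranges overlapped, the mean ranks ran from 99.858 to 99.981, and some Cy5 readings lay at the scanner's ceiling, so their order is not resolved. RPS4Y1 is named after a Y-linked copy of a ribosomal gene with a close X-linked relative. Its linkage in cattle was not checked, and this probe cannot tell the copies apart on these data. Of the first 100 named genes 30 were on the list of cytosolic ribosomal proteins, which does not hold RPS4Y1. The intensities of all 100 genes in any reading ran from 18423 to 65262. With unnamed LOC entries included, 31 of the first 100 genes were LOC entries, of which 27 are pseudogenes in RefSeq and 4 protein coding, so some of the brightest probes may read a parent gene.

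All 62 measured genes on the list of cytosolic ribosomal proteins were above the limit in every reading, with a median rank of 99.4. Of these, 38 were within the brightest 1% of probes. The dimmest, RPS26, ran from 295 through 457 to 711 (mean rank 75.5), and the next, RPL21, from 1000 through 2881.5 to 3992. All 29 translation factors were above the limit in every reading they had (median rank 98.7). TPT1, a translationally controlled protein of growing cells, ran from 42583 through 58797.5 to 64815. EIF1, which scans for the start codon, and EEF1D, an elongation factor subunit, had medians of 45988 and 43753, and EIF3K, of the initiation complex, 43981. EIF3B (413, 704.5 and 1012) and EIF4A2 (528, 799.5 and 1358) were the dimmest members.

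The 50 genes of oxidative phosphorylation were likewise all above the limit in every reading (median rank 97.8). COX5A, a cytochrome oxidase subunit, ran from 41576 through 52439 to 57813, and ATP5F1A, the catalytic-head subunit of ATP synthase, from 35802 through 44724 to 60231. COX6A1 and ATP5F1B, subunits of the same complexes, had medians of 45662 and 42973.5. COX7B (382, 703 and 982) and UQCRH (181, 261 and 324) were the dimmest. Chaperones followed, with 27 of 29 in every reading (median rank 97.1). HSP90AA1, an inducible cytosolic HSP90, ran from 40915 through 57113 to 64505, and PDIA6, a disulfide isomerase of the endoplasmic reticulum, from 41006 through 52856 to 65262. HSPA8, the constitutive HSP70, had a median of 45277 and the nucleolar chaperone gene NPM1 35460. HSPA2 (135, 269 and 352), a testis-enriched HSP70, and PDIA4 (192, 311.5 and 385) were the dimmest. Of 30 proteasome genes 29 were in every reading, led by PSMC5 (median 35150) and PSMD2 (median 32732), subunits of the regulatory particle, and by PSMA6 (median 26042) and PSMB6 (median 19791.5) of the core. PSMD7 (379, 851 and 1026) was dim among them, and PSMD3 (204, 255 and 345) missed the limit in 1 reading.

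**Figure D3:**
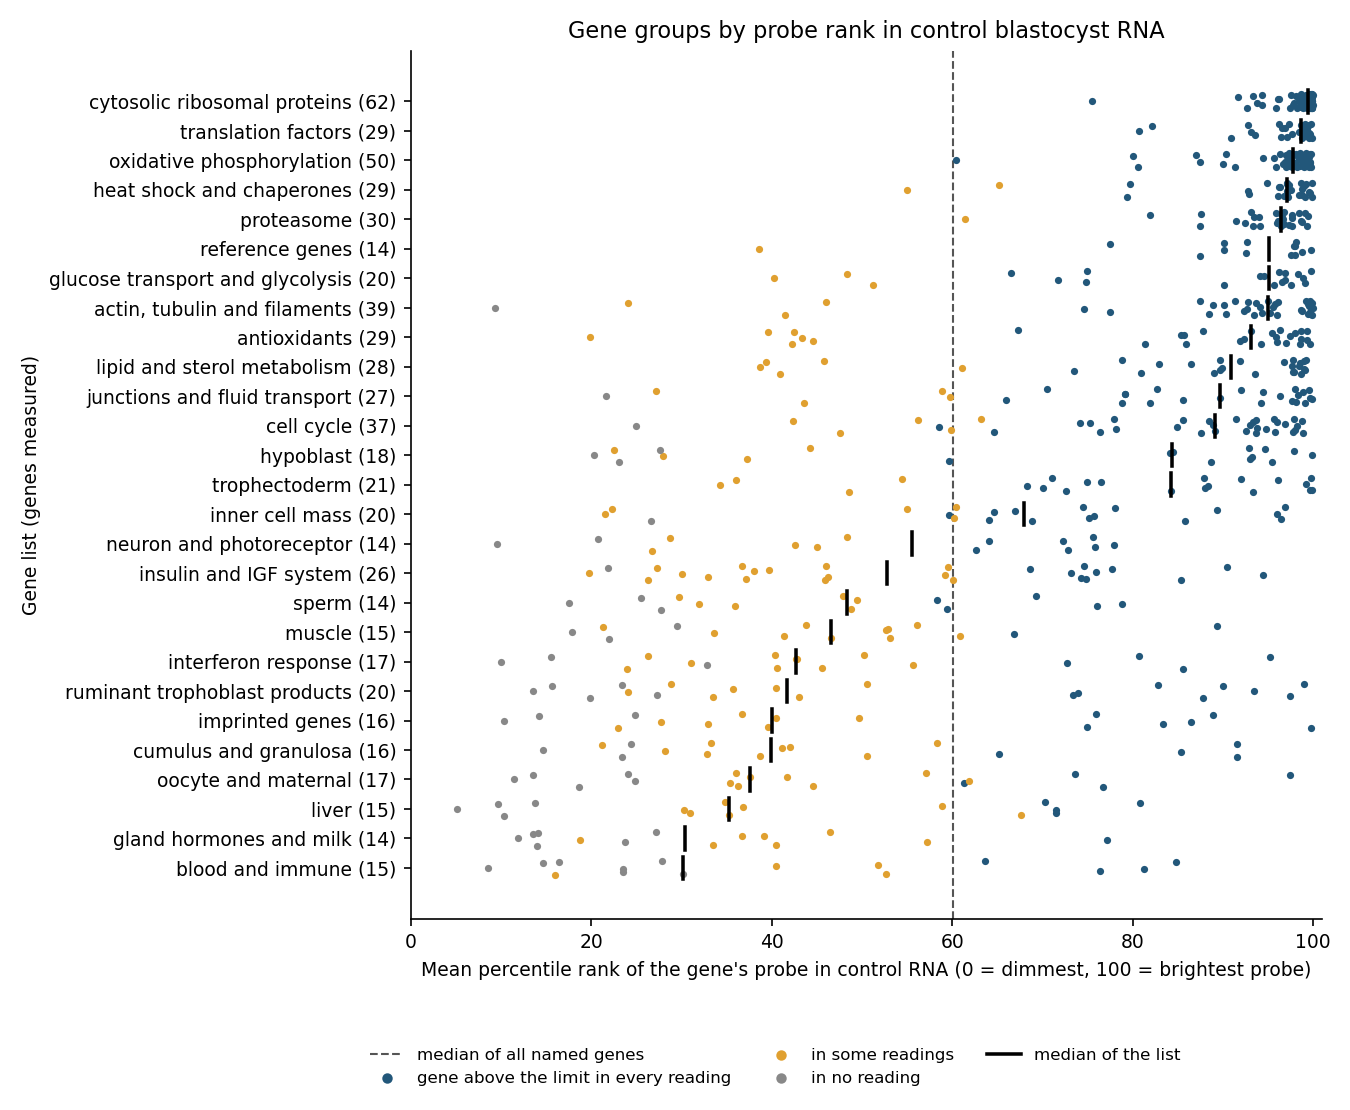
Each point is a gene of the list named on the vertical axis, placed at its mean percentile rank in control RNA (horizontal axis) and coloured by the readings in which it was above the limit. Black bars give list medians, from 99.4 for ribosomal proteins to 30.2 for blood and immune genes, and the dashed line the median of all named genes, 60.1.

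Of 27 genes of junctions and fluid transport, 22 were above the limit in every reading and 1 in none (median rank 89.7). ATP1B3, a beta subunit of the sodium pump, ran from 36890 through 56681 to 65205, while the probe of ATP1B1, another beta subunit, passed the limit in 3 readings with a median of 190.5. CTNNA1, the catenin that ties cadherin to actin, had a median of 42601.5. The tight junction genes CLDN6 (18423, 42096.5 and 57456) and CLDN4 (16055, 22394.5 and 39711) were the brightest claudins. CDH1, the cadherin of epithelia, was dim for its role at 250, 303 and 322, although all 8 readings passed the limit. AQP3, a water and glycerol channel, had a median of 4491.5, while AQP8 (95, 153 and 276) and AQP9 (108, 146 and 205) were in 2 readings and in none. Of 39 genes of actin, tubulin and filaments, 35 were in every reading, led by ACTG1, KRT8, TPM4 and KRT19. The tropomyosin gene TPM1 (104, 133 and 242) passed in 1 reading and the tubulin gene TUBB4 (55, 95.5 and 167) in none.

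SLC2A3, a high-affinity glucose transporter of trophoblast, ran from 33516 through 51528 to 60244, against 3168, 5459.5 and 8102 for SLC2A1, the transporter of most cells. Of 20 genes of glucose transport and glycolysis, 17 were in every reading (median rank 95.1). The lactate dehydrogenase genes LDHB and LDHA had medians of 19298 and 13615.5 with overlapping ranges, and PGAM1, a phosphoglycerate mutase, 23278.5. The enolase ENO2 and the aldolase ALDOC, both brain forms, were in 5 and 4 readings. Among 28 lipid genes 23 were in every reading, with 3 genes of cholesterol synthesis among the 4 brightest. SCD, which makes monounsaturated fatty acids, had a median of 31477, the farnesyl diphosphate synthase gene FDPS 24540, the sterol demethylase gene CYP51A1 23065.5 and HMGCS1, which starts the sterol pathway, 22543. ACACA, the committed step of fatty acid synthesis (133, 178.5 and 257), and CPT1A, which admits fatty acids to mitochondria (113, 193.5 and 262), were the dimmest, in 4 and 3 readings.

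Of 29 antioxidant genes 23 were in every reading and none was below the limit in all (median rank 93.1). Thioredoxin reductase TXNRD1 (34782, 43683.5 and 45095) and the peroxiredoxins PRDX1 (median 32341) and PRDX6 (median 30214) led, followed by thioredoxin TXN (median 17039.5). MT2A (117, 167.5 and 307), a metallothionein, passed in 2 readings, and GPX3 (83, 122.5 and 285), a secreted peroxidase, was the dimmest. Of 37 cell cycle genes 31 were in every reading. MAD2L1, of the spindle checkpoint, had a median of 20980.5, PCNA, the replication clamp, 19889, CCNB1, the mitotic cyclin, 12490.5, and RRM1, which makes deoxynucleotides, 11240.5. CCND1 (95, 181 and 229) was in no reading whereas CCND2, another D-type cyclin, had a median of 4879. The probe of MKI67, a marker of cycling cells, passed the limit in 3 readings (142, 183.5 and 270).

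Reference genes, which are used to normalise embryo measurements, spanned a wide range of signal. Of 14 measured, 13 were above the limit in every reading taken (median rank 95.1). The cyclophilin gene PPIA ran from 30629 through 54554 to 63393, the elongation factor gene EEF1A1 from 11083 through 14089 to 43648 over 7 readings, the succinate dehydrogenase gene SDHA from 6380 through 14683 to 20074 and the histone gene H2AZ1 from 6273 through 13224.5 to 16636. ACTB, cytoplasmic beta actin, lay lower (896, 1916.5 and 2926), far under ACTG1, and these are different probes whose signals are not comparable as amounts. YWHAZ (346, 565.5 and 644) was the dimmest that passed in all readings, and EEF1A2, a neural and muscle elongation factor, passed in 3 (115, 180.5 and 273).

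INSR, the insulin receptor, had intensities of 338, 358, 376 and 250 in Cy5 and 264, 466, 362 and 353 in Cy3 (INS10 slide before INS0.1 slide in each), all above the limit, at a mean rank of 68.6. IGF2R, which clears IGF2 and sorts lysosomal enzymes, had 497, 391, 440 and 319 in Cy5 and 481, 686, 431 and 684 in Cy3 (mean rank 76.0). IGF1R had 126, 107, 167 and 156 in Cy5 and 178, 167, 229 and 151 in Cy3, and passed the limit in 1 of 8 readings. INSR and IGF2R overlapped, while every IGF1R reading lay below the lowest reading of either. Of 26 genes of the insulin and IGF system, 10 were in every reading, 15 in some and 1 in none (median rank 52.7). The signalling genes AKT2 (2344, 4355.5 and 5026), SHC1 (median 2039.5), the adaptor GRB2 (median 1061.5) and MTOR (median 541.5) were the brightest. IRS1, a substrate of both receptors (91, 119 and 275), passed in 1 reading, and IGFBP1 (97, 149.5 and 203), an IGF-binding protein of liver and decidua, in none. The growth factor genes IGF1 and IGF2 passed in 1 and 2 readings.

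Imprinted genes are expressed from the allele of 1 parent in many tissues. Of 16 measured, 6 were in every reading and 3 in none (median rank 40.0). GNAS, a G-protein alpha subunit gene with imprinted and non-imprinted transcripts, ran from 29691 through 53529 to 58873. SNRPN (median 1639), NAP1L5 (median 1190) and PEG3 (median 901) followed. MEST (89, 122.5 and 155), PLAGL1 (61, 114 and 229) and DLK1 were in no reading. Of 17 genes of the interferon response, 4 were in every reading, 10 in some and 3 in none (median rank 42.7). IRF7, which amplifies interferon signalling, had a median of 5188, STAT2, which carries it to the nucleus, 1195, and IFNAR1, a chain of the receptor, 678.5. The interferon-induced gene IFI27 had a median of 406.5. The other receptor chain IFNAR2 (56, 122 and 212) and the antiviral gene RSAD2 (90, 139 and 193) were in no reading, and the interferon-induced genes ISG15 and MX1 passed in 3 and 2.

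Markers of cells that could accompany an embryo or a maturation culture were checked, since amplified RNA of a few such cells would be read too. Of 17 oocyte genes, 4 were above the limit in every reading and 5 in none (median rank 37.6). DPPA3, a maternal factor also made by the epiblast, was the exception at 6516, 9149.5 and 13483. TLE6 and OOEP, of the maternal subcortical complex, had medians of 489 and 446, and BTG4, which drives decay of maternal RNA, passed in 7 readings (159, 266.5 and 460). The zygote arrest gene ZAR1 and the oocyte genes GDF9, ZP4, NOBOX (89, 135.5 and 204) and NLRP5 (65, 117.5 and 164) were in no reading. Of 16 cumulus and granulosa genes, 4 were in every reading and 3 in none (median rank 39.9). The steroid synthesis genes HSD3B1 (1671, 2528 and 3431), CYP11A1 (1282, 2638 and 4344) and STAR (853, 1061 and 1593) were bright, and INHBA, an activin subunit, was dimmer (260, 281 and 352). The granulosa factor FOXL2 (83, 134 and 178), the inhibin subunit INHA and the cumulus matrix gene VCAN were in no reading, and AMH was in 1. Between 4 and 11 of the 16 cumulus genes, and between 5 and 9 of the 17 oocyte genes, passed in any 1 reading, with list medians of 26.7 to 58.4 and 33.6 to 54.6. The part of such cells in these signals was not tested.

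Of 14 sperm genes 5 were in every reading and 3 in none. PRM1, a protamine, ran from 336 through 636 to 1128 and TNP1, a transition protein, from 175 through 336.5 to 515. The tail fibre gene ODF2 (median 496) and the zona-binding gene ZPBP (median 230.5) were also in every reading, while PRM2 (86, 178.5 and 197) and PRM3 were in no reading. Sperm are present at fertilisation in vitro, and their part in these signals was not tested. The lists of differentiated tissues had median ranks of 55.5 for neuron and photoreceptor genes, 46.6 for muscle, 35.3 for liver, 30.4 for gland hormones and milk and 30.2 for blood and immune genes, against 60.1 for all named genes. By detection the neuron list did not lie lower, with 7 of 14 genes in every reading and 2 in none, against 48.2% in every reading for all named genes. The muscle list had 2 of 15 in every reading and 3 in none, the liver list 4 of 15 and 4, the blood list 4 of 15 and 7, and the gland list 1 of 14 and 6. Their dimmest members were at background in all readings, among them the liver gene TF (75, 112.5 and 134), the astrocyte gene GFAP (66, 112 and 174), the milk gene LALBA (65, 109 and 192), the muscle gene MYL2 (76, 145 and 236) and the lysozyme gene LYZ (78, 119 and 167). The dimmest 2 of each list also included the glucose phosphatase gene G6PC1 (83, 113.5 and 146), the synaptic gene SYT1 (62, 136 and 231), the thyrotropin gene TSHB (69, 133 and 182) and the muscle regulator MYOG (68, 136 and 261), the last in 2 readings. Between 6 and 9 of 15 liver genes passed in any 1 reading, 5 to 12 of 15 muscle genes, 7 to 11 of 14 neuron genes, 5 to 8 of 15 blood genes and 1 to 6 of 14 gland genes. Some members were clearly above the limit. ACTC1, a cardiac actin close in sequence to other actins, had a median of 1777, the pituitary hormone gene POMC 553, the fetal plasma protein gene APOH 787 and the neurofilament gene NEFM 485. The other neurofilament genes NEFH (median 470.5) and NEFL (median 347) and the synaptic gene SNAP25 (median 489) lay at the same level. The liver genes TAT (median 346), FGB (median 361) and CPS1 (median 330.5) and the muscle gene TNNC2 (median 292.5) were in every reading but dim. MYH1 and MB of muscle passed in 7 readings each, and of the gland genes GH1 passed in 6, PTH in 5 and CSN1S1 in 2.

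GZMB, a protease of cytotoxic lymphocytes, had intensities of 2129, 2669, 673 and 3339 in Cy5 and 686, 497, 806 and 769 in Cy3. PTPRC, the CD45 marker of leukocytes, had 569, 982, 342 and 1493 in Cy5 and 428, 278, 473 and 452 in Cy3. Both genes were highest in Cy5 replicate 4 of each slide. The haemoglobin genes HBA (380, 722.5 and 1323) and HBG (222, 275 and 352) were above the limit in every reading, and HBB in 2. Of the 15 blood and immune genes 7 were in no reading, including the lymphocyte genes CD4, MS4A1 and CD79A (58, 111.5 and 231) and the monocyte gene CD14.

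Genes at the edge of detection mark what the arrays could resolve. The 742 named genes above the limit in 4 of 8 readings had mean ranks of 27.3 to 54.5 with a median of 43.9. The nearest to that median on the upper side were SLC7A3 (106, 197.5 and 319), PHACTR1 (108, 189.5 and 307), GHRHR, ApoC3 and NHLH1. On the lower side they were CRHR2 (140, 168.5 and 341), EGFL6, CD244, HS6ST2 and CPNE8 (114, 215 and 302). None of these 10 exceeded 341 in any reading, and presence or lack of signal cannot be decided for them.

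The share of probes detected was compared between the RNA of insulin embryos and control RNA on the same arrays, to see whether the control readings were poorer or richer as a whole. It averaged 53.0 ± 5.55% in insulin RNA and 53.0 ± 3.93% in control RNA (SD, n = 8 arrays). The difference was 0.0518 percentage points (SD 6.20, higher in insulin RNA on 4 of 8 arrays), which an exact two-sided sign-flip permutation test over arrays did not separate from 0 (p = 0.992, with 0.0078125 the smallest possible). By dose the means were 56.1 ± 2.76% for INS10 RNA against 55.7 ± 3.16% for its controls, and 49.97 ± 6.27% for INS0.1 RNA against 50.3 ± 2.49% for its controls (SD, n = 4 arrays each). On single arrays, insulin RNA in Cy5 differed from control RNA by −8.72 to 3.14 points, and insulin RNA in Cy3 by −0.651 to 7.35 points.

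Differences between control replicates were partly shared between slides. The difference between replicates 1 and 2 (both Cy3) correlated at 0.530 between slides over 23417 probes detected in at least 4 readings, and that between replicates 3 and 4 (both Cy5) at 0.569. The same differences in insulin RNA correlated with those in control RNA as well. Within a slide, where both RNAs shared arrays, the correlations were 0.424 (INS10) and 0.418 (INS0.1) for replicates 1 and 2, and 0.364 (INS10) and 0.574 (INS0.1) for replicates 3 and 4. Between control RNA of 1 slide and insulin RNA of the other they were 0.222 to 0.341. A number also had the same position on both slides, so replicate and position cannot be told apart. In limma, with slide in the model and both differences tested together, 647 of 23417 probes (2.76%) passed an adjusted p of 0.05, with a median absolute log2 difference of 1.19 against 0.37 for all tested probes. Among them were 94 named genes with a positive and 148 with a negative sign of the larger difference, taken as replicate 1 minus 2 or 3 minus 4, of 9513 named genes tested.

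SYNE2, a giant protein that anchors the nucleus to actin, had intensities of 2449 and 13037 in replicates 3 and 4 on the INS10 slide and 1961 and 11833 on the INS0.1 slide. In Cy3 it had 2602 and 3288 in replicates 1 and 2 on the INS10 slide and 2204 and 3710 on the INS0.1 slide. Replicate 4 stood above the other numbers on both slides (replicate 3 minus 4, log2 −2.44, SE 0.19, limma adjusted p = 0.00284), and a second SYNE2 probe passed as well at −1.68 on the log2 scale. UBD, a ubiquitin-like protein that interferon induces, had 786 and 3587 in replicates 1 and 2 on the INS10 slide and 415 and 3377 on the INS0.1 slide (log2 −2.71, SE 0.27, adjusted p = 0.0100). A second UBD probe gave 0.22 and did not pass. BEX3, an adaptor of neurotrophin receptor signalling, ran the other way, with 2365 and 700 in replicates 1 and 2 on the INS10 slide and 1896 and 561 on the INS0.1 slide (log2 1.97, SE 0.20, adjusted p = 0.0105), and its second probe passed at 0.999.

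The rest of the 20 genes named for this comparison had log2 differences of 1.44 to 1.98 upwards and −2.49 to −1.86 downwards. Upwards between replicates 1 and 2 were MGC152340, CYP4A22, FMR1NB, CLN6, the cartilage collagen gene COL9A2, KCTD1, MGC148328, SORBS2 and the viral RNA sensor gene DHX58. SORBS2 was below the limit in replicate 2 on both slides, so its size is not measured. Higher in replicate 4 than in replicate 3 were ERP27, CAPN6, ARSI, C28H10ORF116, the ciliary gene ARL6, the phosphate transporter gene SLC20A2 and FASLG. AASDHPPT was higher in replicate 2 than in replicate 1. In replicate 3, ERP27 and FASLG were below the limit on the INS10 slide and C28H10ORF116 on the INS0.1 slide. CLN6 was below it in replicate 2 on the INS0.1 slide, so the sizes for these genes are not fully measured. The 2 other ARL6 probes gave −0.21 and 0.18, and second probes of AASDHPPT and SORBS2 −0.34 and 0.18, none of which passed. Of 2 other KCTD1 probes, at 0.54 and 1.44, 1 passed. None of the 7 lineage markers passed (adjusted p = 0.164 for KRT18 to 0.821 for CDX2), nor did IGF2R (0.0807), INSR or FN1. Of 28 lipid genes 27 were tested and 4 passed, DHCR7, FADS2, SCD and SQLE. From the lineage and trophoblast lists CRIPTO (1 of 17 tested), TEAD4 (1 of 19) and PAG11 (1 of 10) passed. From lists of other cells, CYP11A1 of cumulus (1 of 7), PRM1 of sperm (1 of 8), NEFM of neurons (1 of 9) and HBA of blood (1 of 6) passed. No gene passed from the hypoblast (0 of 11), oocyte (0 of 7), liver (0 of 6), muscle (0 of 10) and gland (0 of 4) lists. The share over all probes was 2.76%, and the part of such cells in the replicate differences was not tested. The count rested on single readings. It was 240, 6, 416 and 925 without INS10 replicates 1 to 4 in turn, and 73, 11, 22 and 233 without INS0.1 replicates 1 to 4. SYNE2 alone among the 20 genes kept its call in each alternative that was run.

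Of 23417 probes, 84 (0.359%) passed between the Cy5 and Cy3 readings, of which 40 (0.171%) were higher and 44 (0.188%) lower in Cy5. Replicates 3 and 4 make up Cy5 and replicates 1 and 2 Cy3, so dye and replicate cannot be told apart. NAA35, a subunit of an N-terminal acetyltransferase, had intensities of 259, 271, 266 and 245 in Cy5 (INS10 slide before INS0.1 slide, as for the genes that follow) and 943, 1231, 792 and 689 in Cy3, without overlap (log2 −1.55, SE 0.18, limma adjusted p = 0.0143). A second NAA35 probe gave 0.38. ITGA5, the fibronectin receptor subunit, had 1445, 1453, 1383 and 1396 in Cy5 and 3607, 3723, 3204 and 3782 in Cy3 (log2 −1.24, SE 0.14, adjusted p = 0.0143). UNC93A had 1857, 3672, 3741 and 5486 in Cy5 and 591, 892, 2231 and 2046 in Cy3 (log2 1.62, SE 0.27, adjusted p = 0.0479).

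The other genes named here as higher in Cy5, by 0.94 to 1.16 on the log2 scale, were APP, TWIST2, TACC1, PFKFB3, PAQR3, EPHB4, DUSP14, SLC36A1 and CDK13. Lower at −1.18 to −0.91 were MPDU1, FGFR4, IDH3G, NDUFS7, PGAP3, DOCK5, MTFP1 and MRPL44. Second probes of PAQR3, MPDU1 and PGAP3 gave 0.06, 0.05 and 0.54 and did not pass. Other probes of CDK13, FGFR4, IDH3G and NDUFS7 had the sign of the named probe, and 1 of NDUFS7 passed. PAQR3 and SLC36A1 were above the limit in 6 and 5 of 8 readings. No probe passed with the replicate number as a random block (0 called, 2855 at an unadjusted p under 0.05, within-number correlation 0.363). Without 1 reading the count was 0, 1, 0 and 0 for INS10 replicates 1 to 4 left out and 0, 0, 572 and 0 for INS0.1 replicates 1 to 4. None of the 20 genes kept its call in each alternative that was run. Scaling readings to their medians gave 1492 calls, 1415 of them higher in Cy5.

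Between the INS10 and the INS0.1 slide 1182 probes (5.05%) passed, 754 higher (3.22%) and 428 lower (1.83%) on the INS10 slide. With the replicate number as a block 2593 passed, all 1182 among them. SERPINB2, a plasminogen activator inhibitor, had 1853 and 2826 in Cy5 and 3193 and 3103 in Cy3 on the INS10 slide, against 382 and 412 in Cy5 and 510 and 624 in Cy3 on the INS0.1 slide (log2 2.45, SE 0.17, limma adjusted p = 2.72e-05). The groups did not overlap, while a second SERPINB2 probe gave 0.29 and did not pass. EIF4A1, the helicase that opens mRNA for the ribosome, had 19171 and 21645 in Cy5 and 14812 and 19312 in Cy3 on the INS10 slide, against 6683 and 2996 in Cy5 and 1663 and 8652 in Cy3 on the INS0.1 slide (log2 2.04, SE 0.40, adjusted p = 0.0141). Its adjusted p reached 0.0537 without INS0.1 replicate 4. TERF2, a telomere protein gene, had 430, 419, 489 and 417 on the INS10 slide, all above the limit, against 119, 121, 198 and 169 on the INS0.1 slide, all below it. It was tested only because it passed the limit on 1 slide, and the size of its difference is not measured.

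Of the 10 genes named as lower on the INS10 slide, 8 were near background. CD6, a lymphocyte receptor gene, had 58, 87, 99 and 76 on the INS10 slide, all below the limit, against 186, 224, 275 and 248 on the INS0.1 slide, where the limits were 169, 214, 265 and 247. MCF2L2, PMP2, SLC35D3, PRKACA, NANOS3, SCRN1 and PURG were likewise above the limit in all 4 readings of the INS0.1 slide and in none of the INS10 slide. These 8 genes entered the test only through the slide on which they were higher, so their calls carry no measured size and do not show that dim genes differ more. ABAT (log2 −1.39) and UNC93A (log2 −1.35) were above the limit in all 8 readings. Sgce (2.20), COX8B (1.86), TMEM128, GTF2I, MPV17L, TMEM63C and AKIRIN1 (1.63) made up the increases. On the INS0.1 slide, Sgce was below the limit in replicates 1 and 4 and GTF2I in replicate 1, so their sizes are not fully measured. A second TMEM128 probe gave 0.42 and did not pass. The 2 other AKIRIN1 probes gave −0.39 and −0.14, of opposite sign to the named probe, and did not pass. Of the 20 genes 15 kept their call in each alternative in which they were tested. The 8 genes near background, and TERF2, were not tested with the strict filter. They were also not tested when a reading of their brighter slide was left out, so those alternatives could not overturn their calls. Sgce was not tested with the strict filter. GTF2I lost its call in 8 alternatives, COX8B and UNC93A in 3 each, EIF4A1 in 2 and ABAT in 1. None of the 7 lineage markers passed (adjusted p = 0.244 for NANOG to 0.991 for KRT18). Among the lists, the trophoblast products had 2 of 10 tested genes called (PAG8 and TKDP2, both higher), actin, tubulin and filaments 4 of 37 (ANXA5, MYL12B, TUBA1B and TUBA4A, all higher), translation factors 2 of 29 and oxidative phosphorylation 2 of 50 (all higher), against 5.05% of all probes. Lists with 1 call higher were junctions (CTNNB1, of 24 tested) and imprinted genes (SLC22A18, of 7). Those with 1 call lower were neuron (MBP, of 9), glycolysis (GPI, of 20), chaperones (DNAJB1, of 29) and the insulin and IGF system (SLC2A4, of 15). Slide, and any difference between the control RNA used with each dose, cannot be told apart. Without 1 reading the count was 730, 655, 459 and 636 for INS10 replicates 1 to 4 left out and 599, 777, 707 and 442 for INS0.1 replicates 1 to 4.

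**Figure D4:**
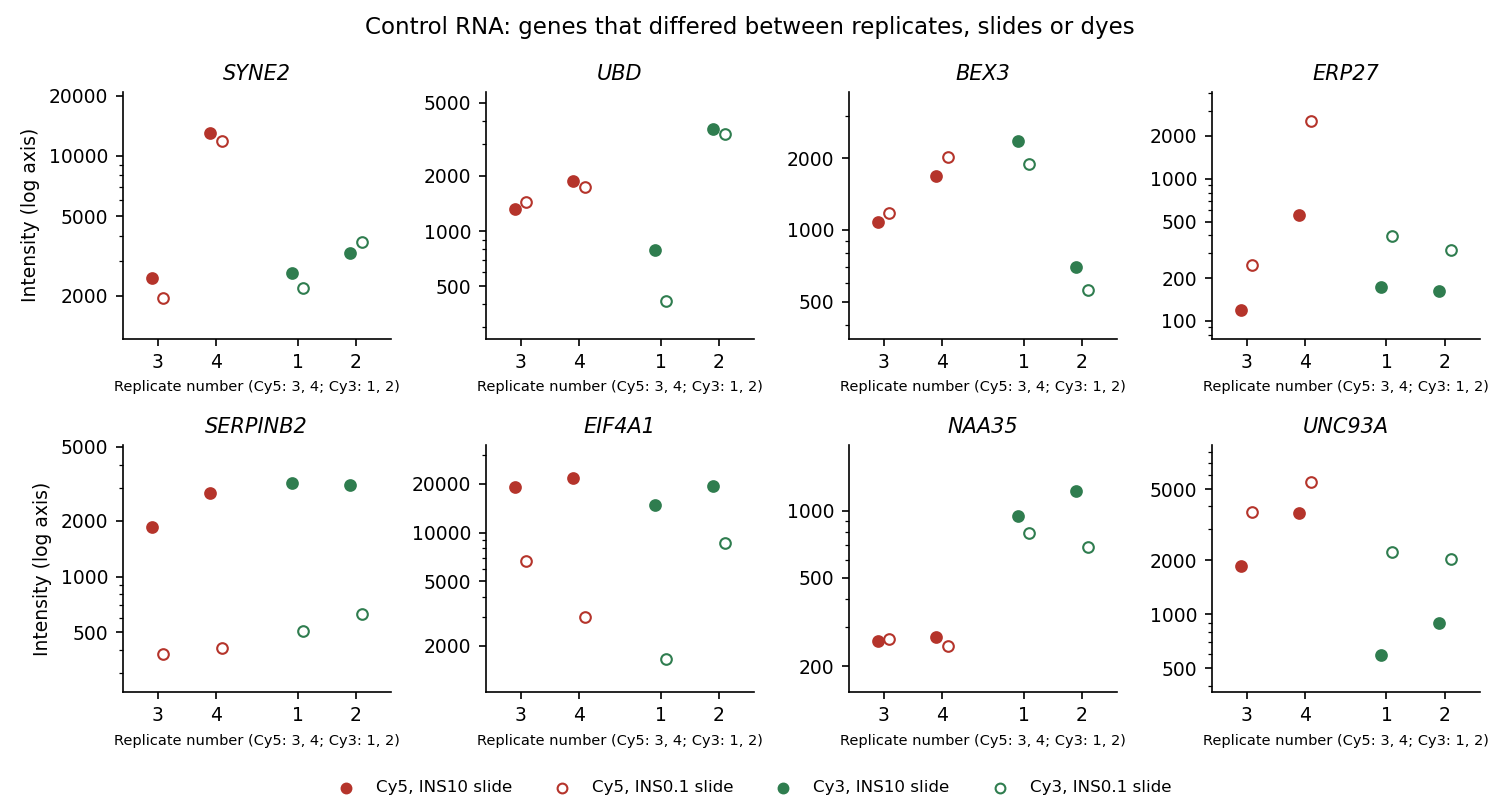
Intensity (log axis) of 8 genes in each control reading by replicate number, with Cy5 (numbers 3 and 4) left of Cy3 (numbers 1 and 2), filled points for the INS10 slide and open points for the INS0.1 slide. SYNE2, UBD, BEX3 and ERP27 differ between numbers on both slides, SERPINB2 and EIF4A1 between slides, and NAA35 and UNC93A between dyes.

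Probes that passed the test between insulin and control RNA lay mostly in the brighter part of the control profile. With both doses averaged, 491 of 29230 probes (1.68%) passed in limma, 442 higher (1.51%) and 49 lower (0.168%) with insulin. In quartiles of the control rank, the dimmest to the brightest held 12 (0.164%), 46 (0.629%), 221 (3.02%) and 212 (2.9%) of these probes, with a median SE of 0.11 log2 units in each. Of the called probes, 12, 39, 199 and 192 were higher and 0, 7, 22 and 20 lower with insulin, in the same order. A probe dim in control RNA could enter the test through its insulin readings alone. The split by direction in the dimmer quartiles is therefore not independent of the filter. The control reading is also the denominator of the ratio, so level and ratio are not independent measures. The dimmest quartile spanned mean control ranks of 15.6 to 44.5, where signal lies near or under the detection limit and the added offset shrinks ratios. An equal SE therefore does not make the quartiles equally able to show a change. The counts do not show whether dim genes respond less.

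Of the 100 brightest named genes 1 passed, near the 1.68% of all probes, CKB, a creatine kinase, which was higher with insulin, and their log2 ratios ran from −0.38 to 0.61 with a median of 0.05. Whether these 100 genes differ from others was not tested. KRT8 had a log2 ratio of 0.08 (SE 0.11, adjusted p = 0.882) and FN1 −0.10 (SE 0.10, adjusted p = 0.804). SOX2, near the limit in control RNA, had 0.69 (SE 0.13, adjusted p = 0.00415). Of the 62 listed ribosomal protein genes 2 passed, RPL13 and RPS10, both higher. The count of 491 was 292, 290, 325 and 490 without INS10 replicates 1 to 4 in turn, and 617, 322, 277 and 398 without INS0.1 replicates 1 to 4. In the brightest quartile the count was 122 to 256 without 1 array.

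**Figure D5:**
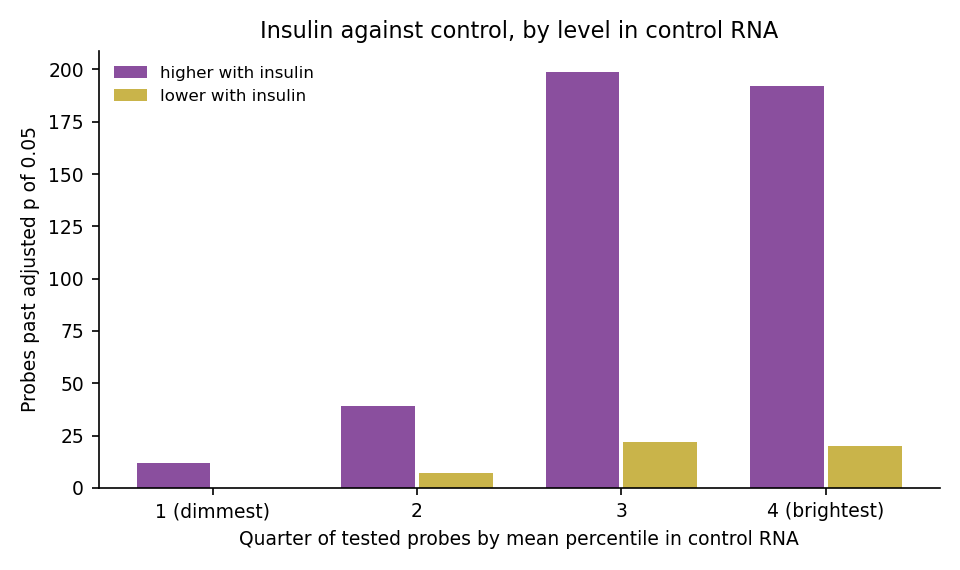
Bars give the number of probes that passed an adjusted p of 0.05 between insulin and control RNA (vertical axis), higher with insulin left of lower with insulin, in quartiles of tested probes by control rank (horizontal axis). The third and the brightest hold 221 and 212 calls, and the dimmest 12.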

How the data were processed

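The control channel of 8 2-colour Agilent arrays was the source of all levels. Per the labels' protocols, RNA was isolated with PicoPure, amplified in 2 rounds with RiboAmp HS Plus and labelled at guanine with Cy3 or Cy5, steps that can alter relative levels. The scanner tables that the authors deposited give, per the file headers, median spot intensity and median background intensity for each channel. The authors' deposited log2 ratios, whose processing steps are not stated, were used for 1 alternative only. The scanner and its software were not given in the sources used here.

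Background was subtracted for ranks and detection. Control spots and 139 ignored spots were left out. Symbols came from the supplied platform annotation for 21790 probes, with 22004 unnamed. Of 15229 symbols 14114 were current in RefSeq (ARS-UCD2.0), 982 were synonyms and were updated, and 133 were not found. LOC entries were not counted as named. No sequences are shown, since no sequence table was used here.

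For tests between control readings, each channel was corrected with normexp (offset 50) and quantile normalised, and probes detected in at least 4 of 8 readings entered limma (version 3.58.1, under R 4.3.3). For insulin over control, ratios were loess normalised within arrays, and probes detected in at least 4 of 16 readings were fitted with 2 dose effects and a dye effect. P-values were adjusted over all probes tested (Benjamini-Hochberg, threshold 0.05). The precision is limited by the number of arrays. Alternatives were other detection limits, normexp offset 16, no background correction, median scaling or centring, no filter or a strict filter, trend and robust moderation, the replicate block, 1 dye or 1 slide alone, raw intensity, the mean of a gene's probes, and leaving out each reading. The dye comparison with a random block was added after seeing the data.

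Control readings of the same number were checked for pairing across slides. Their differences correlated at 0.530 and 0.569, and the labels do not say whether the RNA was the same. The replicate number was a term of the main fit only in the comparison of replicates. The main slide, dye and insulin fits had no replicate block and so treated readings of the same number as independent. In those comparisons the number was a block in alternatives only. For insulin over control, the within-number correlation was 0.210.

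The rule for named genes takes the 20 brightest named genes, the lineage markers and 3 receptors, the 4 brightest and 2 dimmest members of each of 27 lists, the 10 largest changes in each direction in each comparison of control readings, and the 5 genes on each side of the median among those detected in 4 of 8 readings. Other genes were named after their values were seen. The members, lists and tests were chosen with earlier results of these data known. Of 725 list entries 73 matched no probe, and 14 genes stood in more than 1 list.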

Additional observations from a re-analysis of the deposited data

Results flagged for a closer look

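Of 188 named genes examined, 7 (3.72%) had a lowest reading separated from the next by more of the gene's range than Dixon's 95% critical value for 8 readings, which chance gives for about 1 gene in 20. On the INS10 slide, RPS3 (32586), RPS2 (29674), CLDN6 (18423) and PSMA6 (16705) were lowest in replicate 1, RPS21 (36041) in replicate 2 and NEFH (339) in replicate 3. On the INS0.1 slide, PCNA (10905) was lowest in replicate 2. The nearest other readings were 48468 for RPS3, 45059 for RPS2, 38167 for CLDN6, 24096 for PSMA6, 52134 for RPS21, 433 for NEFH and 16328 for PCNA.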

How the results depend on the processing

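The 100 brightest genes held, with 77 to 100 of them shared under each alternative, the lowest with the mean of a gene's probes. Detection in every reading gave 13053 to 15087 probes, and detection in no reading 7074 to 9958, except 15130 with a limit of 3 SD. Probes that passed between replicates numbered 647 as reported, 30 with normexp offset 16, 1151 without background correction, 241 without a filter, 1406 with probes detected in every reading, 1157 with trend and robust moderation, 10 without the slide term, 471 with median scaling, and 6 to 925 without 1 reading. Between Cy5 and Cy3 the count of 84 became 5, 194, 220, 190 and 167 under the first 5 of these, 1492 with median scaling (1415 higher in Cy5), 0 with a random replicate block and 0 to 572 without 1 reading. Between slides the 1182 calls became 2410 without a filter, 506 with probes detected in every reading (418 higher on the INS10 slide and 88 lower, against 754 and 428), 1366 with median scaling (1058 higher and 308 lower), 2593 with the replicate block and 442 to 777 without 1 reading. For insulin against control the 491 calls became 277 to 617 without 1 array, 332 to 519 under other processing and 368 with the replicate block. In the brightest quartile 212 became 127 with normexp offset 16 and 122 to 256 without 1 array. The cause of these changes was not tested. The insulin-minus-control share of detected probes was −0.990 to 1.30 points without 1 array, and with the replicate number as the pairing unit 0.0518 points (exact sign-flip permutation p = 1.0, with 0.125 the smallest possible). Of single-gene values, 524 differences and 1059 levels did not change their call or moved by less than 1 SD, 317 differences lost their call, 45 levels moved and none reversed. A difference was not counted under an alternative whose filter removed the gene from the test. Where a reading was left out, a lone reading was assumed to vary like the others. Genes near the detection limit have no usable order, and Cy5 readings near the ceiling are compressed.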
